A study of Mus musculus with 4 samples.

Results

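The nuclear genes of the respiratory chain and of ATP synthase were followed in 32D-EpoR cells with and without erythropoietin (Epo), the hormone that drives red cell formation. Genes were taken by their name on the array, which had to begin with Nduf (complex I), Uqcr (complex III), Cox4 to Cox8 (complex IV) or Atp5 (ATP synthase, also called complex V), or to be Sdha, Sdhb, Sdhc or Sdhd (complex II). This found 90 of the 36413 gene names on the array, covered by 121 probes. Of these, 86 genes were tested, each by a probe that both arrays of a group had read well above background, among 17569 genes tested in all. One of them, Cox4nb, is not a chain gene: it now carries the name Emc8, encodes a subunit of the endoplasmic reticulum membrane complex and was named for its neighbour Cox4i1. The chain genes tested were thus 85 of 89, made up of 78 of 82 subunits and 7 of 7 assembly factors. The latter class holds 5 assembly factors of complex I. Atp5s, known as coupling factor B, and Cox7a2l, of supercomplex assembly, were placed with them. Another 4 genes, Cox7b2, Cox8b, Cox8c and Ndufa4l2, were not well above background on any array. The probe that stood for each of the 86 genes was well above background on all 4 arrays, so no change given for them is a bound.

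32D is a mouse myeloid progenitor line that grows on interleukin-3, and 32D-EpoR carries an introduced Epo receptor. Both groups were grown in medium supplemented with WEHI-conditioned medium, washed, and cultured without that supplement. The control group then received no Epo and the treated group received 10 U/ml Epo, for a time that the labels do not state. Each group has 2 arrays, from 2 separate experiments on cells of different passages, and all 4 arrays are on 1 slide. The control cells thus had neither conditioned medium nor Epo, and all cells are of 1 line, so the comparison describes this line with Epo present or absent.

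The respiratory chain passes electrons from NADH (at complex I) and succinate (at complex II) through ubiquinone and complex III to complex IV, which reduces oxygen. Complexes I, III and IV pump protons across the inner mitochondrial membrane, and ATP synthase uses their return to make ATP. Most subunits are encoded in the nucleus and a small set in the mitochondrial genome, and assembly factors help to build the complexes without being part of the finished enzyme. In red cell precursors the chain is of interest because heme synthesis takes place partly in mitochondria and mature red cells lose their mitochondria.

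Values are log2 scaled signals: the log2 of an array's processed intensity, shifted so that the 75th percentile is equal on all arrays. A change is the mean with Epo minus the mean without, and a gene was called where limma's p, adjusted by Benjamini-Hochberg over all genes tested, was under 0.05. Before scaling, the 75th percentile was 224 and 250 intensity units without Epo and 347 and 454 with Epo. Arrays of the same group correlated at 0.993 and 0.995 across probes, and arrays of different groups at 0.971 to 0.976. Among markers of the labelled cell type, 14 of 15 myeloid progenitor genes on the array were tested, Mpo, Elane and Prtn3 among them, with 1 that rose and 1 that fell, and Kit was not well above background in either group. Their summed scaled signal was 298100 and 299704 without Epo and 267836 and 277504 with Epo. Of all genes tested, 13.1% were called higher and 14.2% lower. Of the markers of other cells, 6 of 11 erythroid genes were tested, with 0 that rose and 2 that fell. All 6 had a change below 0, with a median of -0.47. Of 12 lymphoid genes 3 were tested, all of which fell. The summed scaled signal of the erythroid genes tested was 12760 and 14564 without Epo and 9022 and 9064 with Epo, and that of the lymphoid genes was 2366 and 2444 against 1263 and 1401. Of 4 of 11 macrophage genes and 5 of 12 stromal genes tested, 1 of each rose, and 1 and 2 fell. Their sums were 3669 and 3592 without Epo against 4475 and 4795 with Epo for the macrophage genes, and 1887 and 1872 against 1993 and 2214 for the stromal genes. The part of these genes' cells in the results below was not tested. In bulk RNA, fewer cells of a type and less RNA per cell cannot be told apart.

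Of the 86 genes, 2 rose with Epo (Ndufaf4 and Atp5s), 1 fell (Cox6b2) and 83 were not called. That is 3.49% called, against 27.3% of all genes tested. Of all genes, 13.1% were called higher and 14.2% lower, so calls in general were common and calls among the chain genes were few. Both genes that rose are outside the group of subunits, and the 1 that fell is a form of a complex IV subunit known from testis. The groups did not overlap for 49 of the 86 genes (57.0%), against 68.8% of all genes tested. With 2 arrays per group, a gene that was not called may still differ, and intervals are given for that reason. The 95% interval of the change lay within 2-fold in either direction for 83 of the 86 genes and for 11473 of the 17569 genes in all. The other 3 genes were Ndufaf4, Cox6b2 and Cox4i2.

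**Figure D1:**
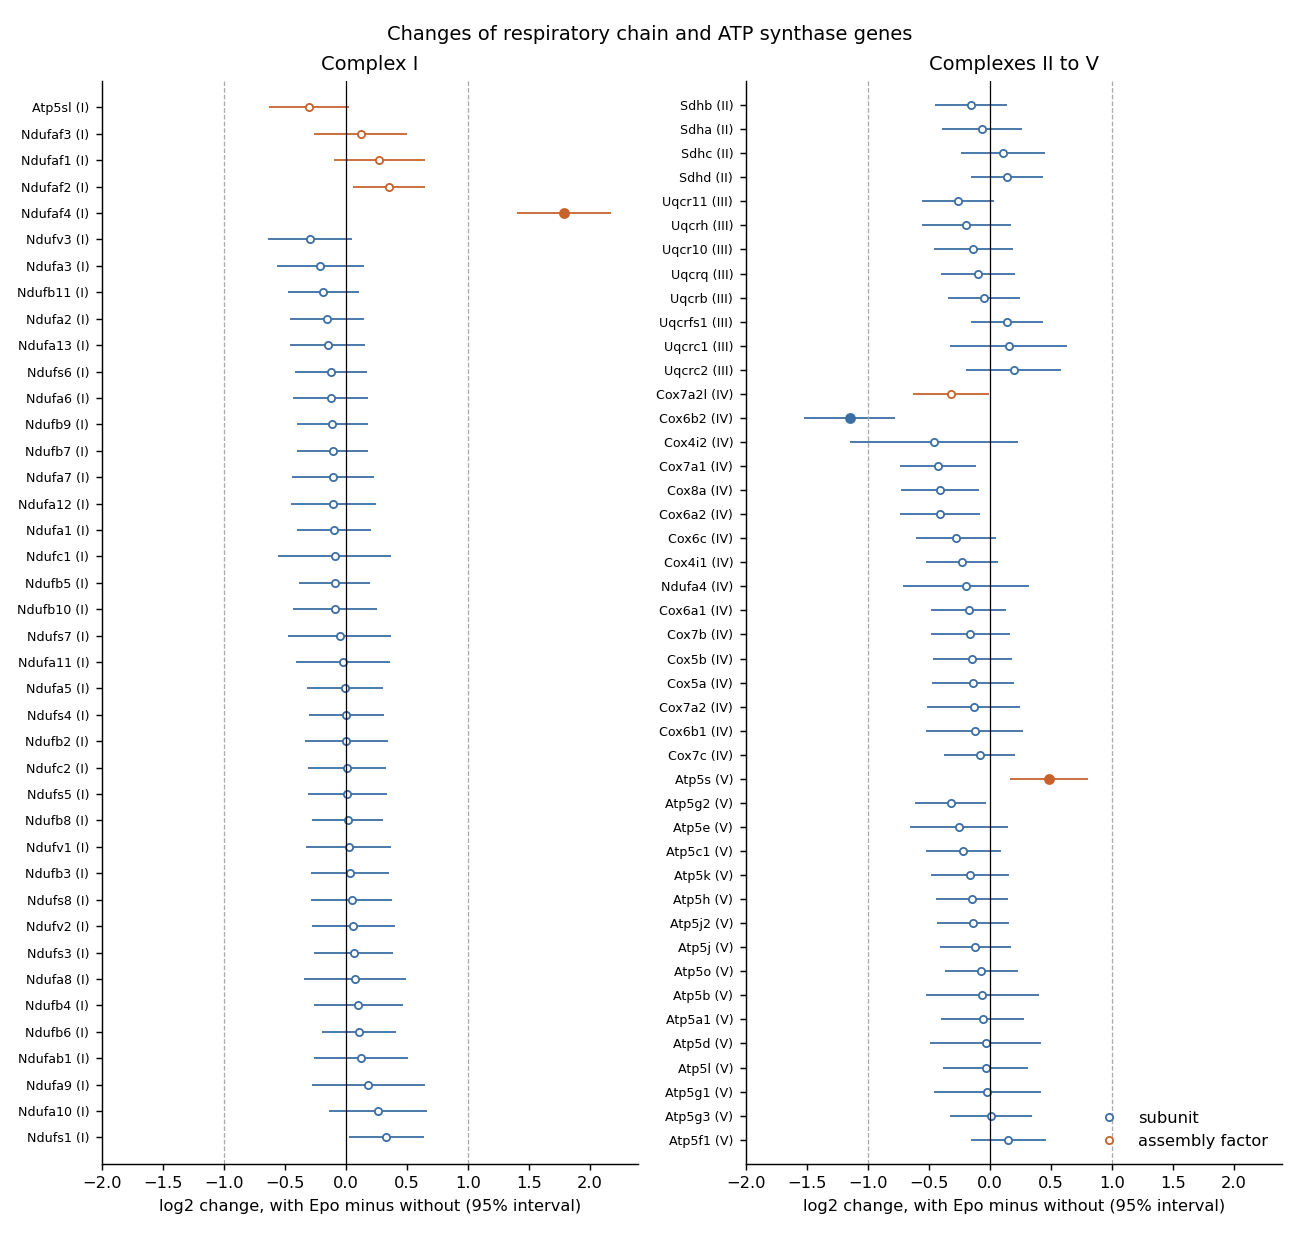
The log2 change with Epo minus without (point) and its 95% interval (line) for the chain genes tested, 1 complex I subunit left out, with complex I on the left and complexes II to V on the right, subunits in blue and assembly factors in orange. Filled points passed the threshold (Ndufaf4 and Atp5s higher, Cox6b2 lower), and dashed lines mark a 2-fold change in either direction, which no subunit interval crosses except those of Cox6b2 and Cox4i2.

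The 3 called genes rest on the probes below. The first 30 of each probe's 60 bases are shown, with the position of the whole probe on mm9, and both probes of Ndufaf4 are given because they read the gene at separate places.
Ndufaf4, probe at chr4:24829194-24829253 (+): atacaagttcctgtgagttgagggccataa
Ndufaf4, probe at chr4:24830284-24830343 (+): catacttgcctcgagattccacgggaaaag
Atp5s, probe at chr12:70842700-70842759 (+): aggcttagtcaacttgaaaatttacgaaaa
Cox6b2, probe at chr7:4703488-4703547 (-): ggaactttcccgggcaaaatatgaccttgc

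Assembly factors came apart from each other. Ndufaf4, which works on early assembly intermediates of complex I, read 10.98 and 10.70 without Epo and 12.66 and 12.60 with Epo. The lowest array with Epo was far above the highest without. The rise was 1.79 ± 0.14 (SE, n = 2 per group), or 3.45-fold (limma adjusted p 0.00540). Its second probe read 10.16 and 10.12 against 11.90 and 11.75, a rise of 1.68 (limma adjusted p 0.00575 over all probes kept). Both probes thus put Ndufaf4 above its control level, by similar amounts.

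Ndufaf2, a chaperone of a late step in complex I assembly that resembles the subunit Ndufa12, read 11.28 and 11.34 without Epo and 11.66 and 11.67 with Epo. The groups did not overlap, and the change of 0.35 ± 0.11 (SE) missed the threshold (limma adjusted p 0.0787) and passed it with the replicate number as a block (0.0404). Ndufaf1, part of the assembly complex for the membrane arm, changed by 0.28 (interval -0.10 to 0.65), and Ndufaf3, a partner of Ndufaf4, by 0.12 (interval -0.26 to 0.51). Ndufaf3 and Ndufaf4 therefore did not show changes of like size here, and their intervals do not overlap. Atp5sl, which carries an ATP synthase name but is now called Dmac2 and acts in complex I assembly, changed by -0.30 (interval -0.63 to 0.03). Among the 5 complex I assembly factors, 1 was called (20%, against 27.3% of all genes tested), and their median change was 0.28.

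Atp5s, long known as coupling factor B and now named Dmac2l, read 7.04 and 7.10 without Epo and 7.63 and 7.48 with Epo. The groups did not overlap, and the rise was 0.49 ± 0.12 (SE), or 1.40-fold (limma adjusted p 0.0464). This call is close to the threshold: without any 1 of the 4 arrays the adjusted p was 0.115 to 0.250, and tested by probe it was 0.0516. With normexp background the change was 0.29 and not called (adjusted p 0.0971), nor was it called with an intensity trend (0.0568) or with the percentile over detected probes (0.0842). Cox7a2l, which joins complexes III and IV into supercomplexes, read 16.07 and 16.05 without Epo and 15.81 and 15.68 with Epo. Its change of -0.32 ± 0.12 (SE) was not called (limma adjusted p 0.113). Over all 7 genes classed as assembly factors, with Atp5s and Cox7a2l among them, 2 rose and 0 fell. That is 28.6% called, where 27.3% of all genes were called and 13.1% rose. The median change of the 7 genes was 0.28 and the range ran from -0.32 to 1.79. Of the 5 complex I assembly factors alone, 1 rose.

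**Figure D2:**
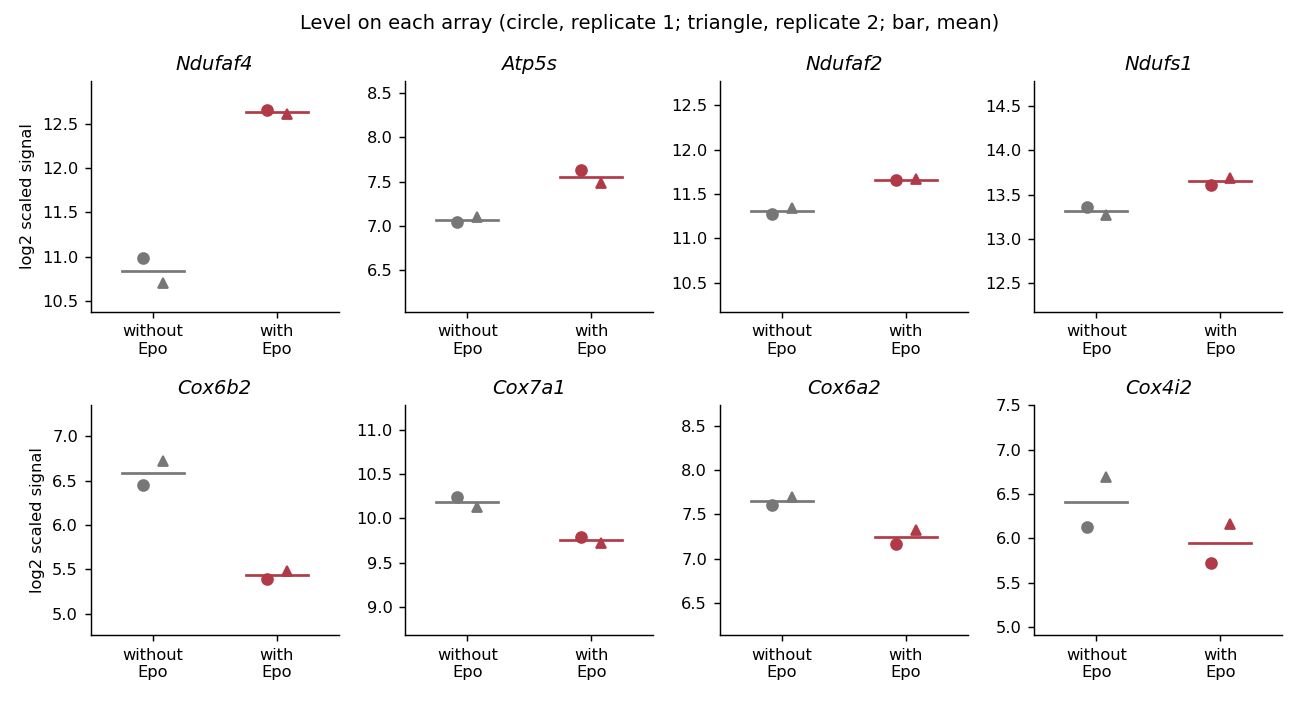
The log2 scaled signal on each array (circle, replicate 1; triangle, replicate 2; bar, group mean) for 4 genes with changes above 0 and 4 complex IV forms with changes below 0. Every panel spans the same range on its axis, and the groups overlap only for Cox4i2, whose without-Epo replicate 1 at 6.12 lies below its with-Epo replicate 2 at 6.17.

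Subunits stayed in a narrow band. Of 78 subunits tested, 0 rose and 1 fell (1.28% called, against 27.3% of all genes tested). At an unadjusted limma p under 0.05, 1 subunit went upward and 5 went downward. The median change was -0.09, against -0.06 for all genes tested, and it was above 0 with normexp background and without scaling (0.040 and 0.66). Leaving aside the 4 tissue-restricted forms tested, the other 74 subunits had changes from -0.41 to 0.33, 0 calls and a 95% interval within 2-fold in all 74 cases. With the replicate number as a block, limma called 0 subunits higher and 6 lower, and 43.1% of all genes.

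Complex I, the entry point for electrons from NADH, had 36 subunits tested and 0 called by limma, with 1 at an unadjusted p under 0.05. Their median change was -0.01 and their range -0.29 to 0.33. The 7 nuclear core subunits, which hold the flavin and iron-sulfur clusters, had a median of 0.05, and the 29 accessory subunits a median of -0.09. Ndufs1, the largest core subunit, had the smallest p: it read 13.36 and 13.27 without Epo and 13.61 and 13.69 with Epo. These groups did not overlap, and the change of 0.33 ± 0.12 (SE) was not called (limma adjusted p 0.0993). It was called with normexp background (0.47, adjusted p 0.0314), with an intensity trend in the prior variance (0.0481) and without scaling. The core subunit Ndufv1, which binds NADH, changed by 0.02 (interval -0.32 to 0.37). The accessory subunit Ndufv3 was at the other end, with 15.03 and 15.17 without Epo, 14.73 and 14.88 with Epo and a change of -0.29 (limma adjusted p 0.158). A second probe of Ndufv3 gave -0.62, and the mean of both probes -0.45. The groups overlapped for most complex I subunits: they were apart for 14 of the 36 (38.9%), against 68.8% of all genes tested.

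Complex II, which is also the succinate dehydrogenase of the tricarboxylic acid cycle, had all 4 subunits tested and 0 called. Sdhd, a membrane anchor, read 14.85 and 14.78 without Epo and 14.94 and 14.97 with Epo, a change of 0.14 (interval -0.16 to 0.44). Sdhb, which carries the iron-sulfur clusters, read 14.86 and 14.88 without Epo and 14.75 and 14.69 with Epo, a change of -0.16 (interval -0.45 to 0.14). The groups were apart for both of these probes. A second probe of Sdhb gave 0.04, so its probes disagreed in sign, and their mean was -0.056. The flavoprotein Sdha changed by -0.06, and the 2 probes of the anchor Sdhc gave 0.11 and -0.05, again with opposite signs.

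Complex III, which passes electrons from ubiquinol to cytochrome c, had 8 subunits tested and 0 called, with a median change of -0.07. Uqcr11, a small accessory subunit, read 15.79 and 15.84 without Epo and 15.58 and 15.54 with Epo, a change of -0.26 (limma adjusted p 0.152). Uqcrh, the hinge protein, changed by -0.19 (its second probe by -0.41, their mean by -0.30). The Rieske iron-sulfur protein Uqcrfs1, the one nuclear subunit of this complex in the set that carries a redox centre, changed by 0.14, and the core proteins Uqcrc1 and Uqcrc2 by 0.15 and 0.20. None of the 8 intervals reached 2-fold. The medians of complexes I, II, III and V took both signs under the scalings tried, from -0.20 to 0.13 when unscaled values are left aside.

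Complex IV, cytochrome c oxidase, was the 1 complex whose subunits all lay on one side of 0. All 15 of its subunits tested had a change below 0, with a median of -0.20, where the other 63 subunits lay on both sides. ATP synthase was close to this, with 13 of 15 subunits below 0. In complexes I, II and III, 19 of 36, 2 of 4 and 5 of 8 were below 0. Of all genes tested, 9620 of 17569 were below 0, and 911 of 1036 of those with a mean level of 15 and above. Of the chain genes at that level, in any complex, 31 of 33 were below 0. For complex IV that direction depends on the scaling. After cyclic loess 13 of its 15 subunits were below 0, after quantile normalization 12, with normexp background 13 and without scaling 1. Without scaling the median was 0.55, when that of all genes was 0.68. Only Cox6b2 was called, and 4 of the 15 had an unadjusted limma p under 0.05. With the replicate number as a block, 5 fell, where 4072 of all 17569 genes fell.

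Several complex IV subunits exist in a general form and a form restricted to certain tissues. The 11 general forms tested had 0 calls, a median of -0.16 and a range of -0.41 to -0.08. Of 8 tissue-restricted forms and paralogs on the array, 4 were tested, with a median of -0.44. The other 4 are the genes named above that were not above background. The 4 tested were also dimmer, with a median level of 6.81 against 15.31 for the general forms. Of all 7935 genes with a mean level under 9, 19.2% were called lower, and their median change was -0.14. Cox6b2, the testis form of the subunit that bridges the cytochrome c side, read 6.46 and 6.72 without Epo and 5.39 and 5.48 with Epo. The groups were well apart, and Cox6b2 fell by 1.15 ± 0.14 (SE), 2.22-fold lower with Epo, with a limma adjusted p of 0.0102. With normexp background Cox6b2 changed by -0.83 (limma adjusted p 0.00493). It stayed called without each of the 4 arrays in turn (adjusted p 0.0135 to 0.0357), and without scaling it changed by -0.40 and was not called. The general form Cox6b1 read 12.71 and 12.97 without Epo and 12.62 and 12.81 with Epo. These groups overlapped, with a change of -0.12 (interval -0.52 to 0.27) that does not reach the interval of Cox6b2.

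The heart and muscle forms gave smaller values. Cox7a1 read 10.24 and 10.13 without Epo and 9.80 and 9.72 with Epo, with no overlap and a change of -0.42 ± 0.12 (SE; limma adjusted p 0.0604, and 0.0301 with the replicate block). It was also called lower after cyclic loess and after quantile normalization. Its general counterpart Cox7a2 changed by -0.13 with overlapping groups. Cox6a2 read 7.61 and 7.70 without Epo and 7.17 and 7.32 with Epo, a change of -0.41 ± 0.12 (SE; limma adjusted p 0.0741, and 0.0329 with the block). Its general counterpart Cox6a1 changed by -0.17. Cox4i2, the form known from lung and linked to low oxygen, read 6.12 and 6.69 without Epo and 5.73 and 6.17 with Epo. Its groups overlapped, and its change of -0.46 ± 0.26 (SE) was not called (limma adjusted p 0.249, and 0.0315 with the block). Within each experiment Cox4i2 was lower with Epo, by 0.40 and 0.52, while its general counterpart Cox4i1 changed by -0.23. Differences between the forms of a pair were not tested beyond these intervals.

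Among general forms with no tissue-restricted partner tested, Cox8a was lowest, at 17.09 and 17.25 without Epo and 16.78 and 16.74 with Epo. The groups were apart, and the change of -0.41 ± 0.12 (SE) was not called (limma adjusted p 0.0707, and 0.0494 with the block). Cox7b changed by -0.16, and Ndufa4, named for complex I but now assigned to complex IV, by -0.20.

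ATP synthase had 15 subunits tested and 0 called, with a median change of -0.07 and 13 of them below 0. The 5 subunits of the catalytic head and central stalk were all below 0, with a median of -0.06. Atp5c1, the rotating gamma subunit, had the smallest p among them, with 15.65 and 15.70 without Epo, 15.51 and 15.41 with Epo and a change of -0.22 (limma adjusted p 0.223). Atp5a1 and Atp5b, which form the catalytic head, changed by -0.06 each. The 10 subunits of the membrane part and outer stalk had a median of -0.09.

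The proton-carrying c ring is made of 1 mature protein that is encoded by 3 genes. Atp5g2 read 17.00 and 16.99 without Epo and 16.68 and 16.67 with Epo. Its arrays agreed closely within each group and the groups were apart, yet the change of -0.32 ± 0.11 (SE) was not called (limma adjusted p 0.0949, and 0.0462 with the block). Atp5g1 and Atp5g3 changed by -0.02 and 0.01, with overlapping groups. The intervals of the 3 genes overlap, so a difference among them was not shown.

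Probes of the same gene were compared where possible. For 24 genes with more than 1 probe kept, the changes of a gene's probes lay a median of 0.07 apart, and 20 of the 24 had a spread under 0.2. Probes disagreed in sign for 4 genes (Ndufa5, Ndufb2, Sdhb and Sdhc), of which 0 had a call. Besides Cox7c, the spread was above 0.2 for Ndufv3 (0.32), Ndufb11 (0.28) and Uqcrh (0.22). The spread of Cox7c cannot be given with precision, since it rests on a dim probe that read 5.83 and 5.22 without Epo and 3.94 and 4.85 with Epo, where 3.94 is under the lowest value well above background on that array. Atp5l, read by 5 probes, ran from -0.17 to -0.02.

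Most chain genes were bright, and bright genes were called less often on these arrays. Among genes with a mean level of 13 to 15, limma called 17.1% of all 1610 genes and 0 of 34 chain genes. At a mean level of 15 and above it called 13.2% of all 1036 genes and 0 of 33 chain genes. In that brightest band the median change was -0.27 over all genes and -0.14 over the chain genes. Cyclic loess, which aims to reduce differences that depend on brightness, left it at -0.13 and -0.04. Over genes of every level the median after cyclic loess was -0.02, so a shift of the brightest band remained. After quantile normalization the median of that band was -0.0056 over all genes and -0.021 over the chain genes. Without scaling these were 0.48 and 0.60, so which of the medians lay nearer to 0 depended on the scaling.

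**Figure D3:**
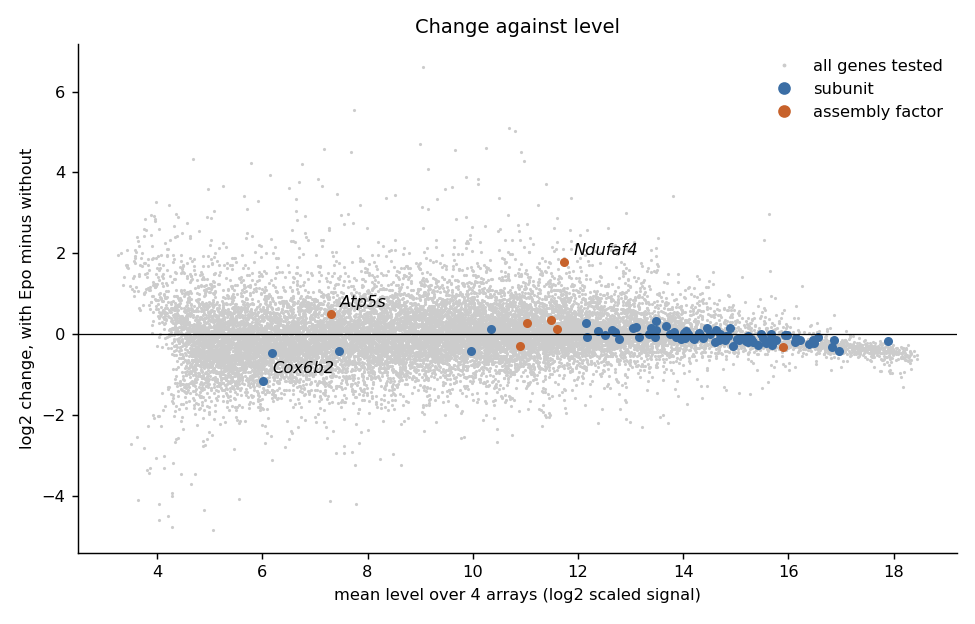
The log2 change with Epo minus without against the mean level over 4 arrays for all 17569 genes tested (grey), subunits (blue) and assembly factors (orange). Most subunits lie above a level of 13 and close to 0, and the grey points bend below 0 at a level of about 15 and above. The 3 named genes that were called, Ndufaf4, Atp5s and Cox6b2, have lower levels.

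Promoter sequence was compared for the 74 of 89 chain genes that matched a RefSeq promoter (GRCm38.p6, 250 bases before to 50 after the gene start). The letters of the NRF1 core, GCGCATGCG, on either strand, stood in 9 of the 74 (12.2%) and in 1.95% of 27025 genes. NRF1 is a transcription factor known for nuclear genes of the respiratory chain. The 9 genes were Atp5g2, Atp5k, Atp5l, Cox6a1, Ndufa11, Ndufa8, Ndufaf4, Uqcr11 and Uqcrc1. The ETS core CCGGAAG stood in 17 of the 74 (23.0%) and in 9.93% of all genes, and the STAT core TTCNNNGAA in 5 (6.76%) and 9.55%. None of the genes with either of these last motifs was called. The stretches below show Ndufaf4, the 1 gene with the NRF1 letters that rose, beside 4 that were not called. They are written in the direction of the gene, with the NRF1 letters of both strands in capitals.
Ndufaf4, chr4:24897930-24898018 (+): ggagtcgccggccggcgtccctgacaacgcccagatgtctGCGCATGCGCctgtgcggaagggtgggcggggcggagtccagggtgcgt
Cox6a1, chr5:115349072-115349160 (-): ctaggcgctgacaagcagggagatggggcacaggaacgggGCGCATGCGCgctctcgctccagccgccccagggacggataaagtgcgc
Atp5g2, chr15:102671048-102671129 (-): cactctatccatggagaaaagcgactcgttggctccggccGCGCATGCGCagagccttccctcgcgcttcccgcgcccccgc
Ndufa11, chr17:56717662-56717750 (+): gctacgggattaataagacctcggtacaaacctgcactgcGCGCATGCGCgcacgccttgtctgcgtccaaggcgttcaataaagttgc
Atp5k, chr5:108434401-108434489 (-): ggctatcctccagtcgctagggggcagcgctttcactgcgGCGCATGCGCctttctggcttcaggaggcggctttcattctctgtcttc

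In all 5 the letters read the same on both strands, and their first base stood 113, 162, 42, 60 and 50 bases before the gene start, in that order. Against the rise of 1.79 for Ndufaf4, the other 8 genes with the letters changed by -0.32 to 0.15. The same letters thus went with different changes, and the match alone is a description of sequence.

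Genes that serve the chain without being subunits were taken from lists written from textbook knowledge. Of 27 other assembly factors tested, 8 rose and 0 fell, with a median change of 0.32 (7 and 1 with the percentile taken over detected probes, 12 and 2 with the replicate block). The share that rose was 29.6%, where 13.1% of all genes rose and 27.3% were called in either direction. With the block limma called 43.1% of all genes. Sco2, a copper chaperone of complex IV, read 10.65 and 10.99 without Epo and 12.77 and 13.07 with Epo, a rise of 2.10 ± 0.19 (SE; limma adjusted p 0.00622). Ecsit and Tmem186, both of the complex I assembly complex that holds Ndufaf1, rose by 1.13 and 0.91, the latter not called without with-Epo replicate 1 (adjusted p 0.0561). Of 11 genes tested that were listed under ubiquinone synthesis, 4 rose and 0 fell: Coq10b, Pdss1 and Pdss2, by 1.40, 0.93 and 0.96, and Coq5. That is 36.4%, where 13.1% of all genes rose, and Pdss2 was not called without either with-Epo array (adjusted p 0.0770 and 0.0592). Ubiquinone is the carrier between complexes I or II and complex III, and Pdss1 and Pdss2 make its side chain. With quantile normalization, cyclic loess or the percentile over detected probes, 3 of this list rose and 1 fell.

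Of 20 regulators of mitochondrial genes tested, 4 rose and 0 fell, or 4 and 1 with the percentile over detected probes. The share called was 20%, against 27.3% of all genes, and 13.1% of all genes rose. Ppargc1b, a coactivator of genes of oxidative metabolism, is 1 of the 4 in this count and share. It passed the filter only through the with-Epo arrays. Its call (limma adjusted p 0.00530) rests on control values that were not well above background, so the size of its change is not known. Its mean with Epo was 2.53-fold above the averaged lowest values well above background on the control arrays. With normexp background its change was 0.31 and was not called (adjusted p 0.0700). The nuclear receptor Esrra, which works with Ppargc1b, rose by 0.76. The mitochondrial DNA helicase Peo1 (now Twnk) rose by 1.05 and the related coactivator Pprc1 by 1.69. Under the alternatives, the change of Peo1 ran from 0.46 to 1.79 and that of Esrra from 0.64 to 1.51. Esrra was called without without-Epo replicate 1 but lost its call without any other 1 array (adjusted p 0.0562 to 0.0943), and Peo1 lost its call without with-Epo replicate 2 (0.0625). Nrf1 itself changed by 0.39 and was not called (limma adjusted p 0.0857), and Tfam, which packages mitochondrial DNA, changed by -0.06; these last 2 and Pprc1 were singled out after their values were seen. Of 10 other electron carriers and related genes, limma called 0, with 2 at an unadjusted p under 0.05: Atpif1, an inhibitor of ATP synthase, changed by -0.39 (adjusted p 0.0675) and Gpd2 by 0.37 (adjusted p 0.0735). Of 19 genes listed under the tricarboxylic acid cycle limma called 0, with 4 at an unadjusted p under 0.05. Idh3a and Pcx, from that list, changed by 0.67 and 0.47 (limma adjusted p 0.0516 and 0.0867). With the replicate block, 1 carrier gene rose and 1 fell, and 4 genes of the cycle list rose. Under that block 3499 of all 17569 genes rose and 4072 fell.

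For comparison, 21 of 75 genes of mitochondrial ribosomal proteins (28.0%) rose and 0 fell (median change 0.22), and 9 of 21 Timm and Tomm genes of protein import (42.9%) rose and 0 fell (median 0.54), where 13.1% of all genes rose. Under each scaling tried, 0 genes of these 2 lists fell. Differences between the lists and the chain subunits were not tested, and 1 subunit of 78 was called.

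**Figure D4:**
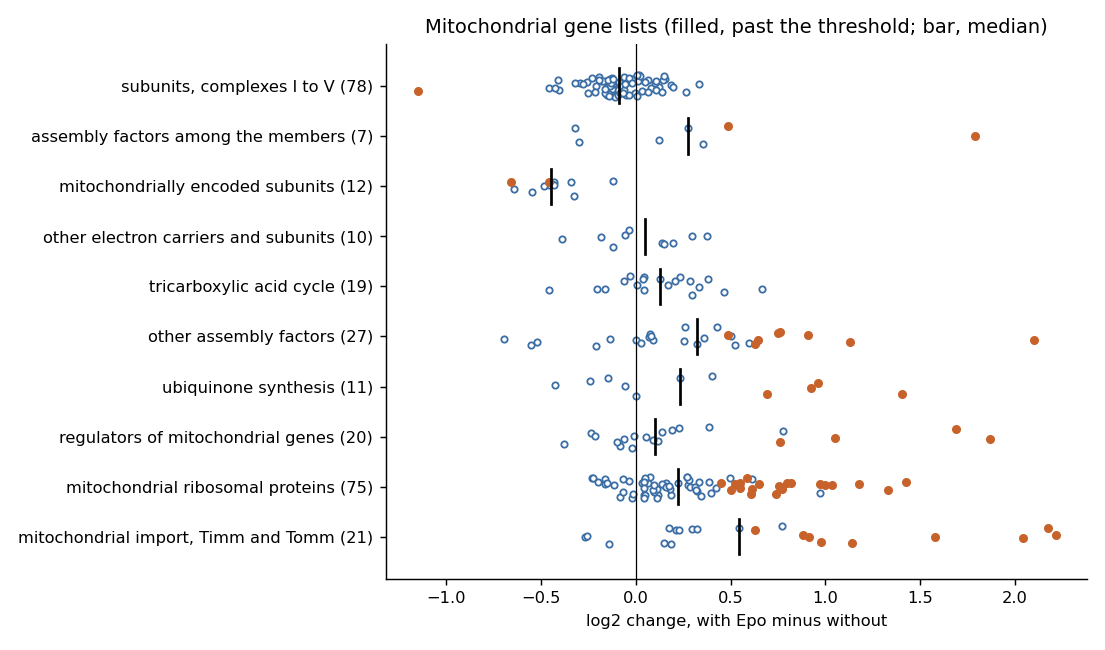
The log2 change with Epo minus without for each gene tested (points; filled where called) and the median (bar) of the chain subunits, the assembly factors among the chain genes and 8 other lists of mitochondrial genes, with the number tested in brackets. Points of the subunits gather around -0.09 with Cox6b2 alone at -1.15. Filled points above 0 appear among assembly factors, ubiquinone synthesis, regulators, ribosomal proteins and import. The filled point of Ppargc1b, among the regulators, rests on control values that were not well above background.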

How the data were processed

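Total RNA was labelled with Cy3 from 200 ng by priming on the poly(A) tail, per the labels' protocols, and read on 4 Agilent 1-colour arrays. The deposited files hold Feature Extraction 10.1.1.1 output, per the file headers: a processed intensity, already corrected for background, and the raw mean and local background intensity. The submitters' processing notes name limma, with no version.

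From these, the processed intensity was put on the log2 scale and each array's 75th percentile over 59305 non-control spots was subtracted (the mean percentile was added back). Outlier spots were left out and spots of a probe averaged. A probe was kept when well above background on both arrays of a group, which left 23735 of 55681 probes. The kept probe with the highest mean stood for its gene. Groups were compared by limma 3.58.1, run under R 4.3.3 with its functions lmFit and eBayes (both directions tested, Benjamini-Hochberg over 17569 genes), with 2 residual and 4.57 total degrees of freedom. The 2 arrays per group limit the precision: the median SE was 0.145 and the smallest called change 0.43. The steps were tested on simulated data.

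Members, lists and tests were chosen with earlier results of these data known, and the list of mitochondrially encoded genes was added after the files were seen. Genes named with values were, by rule, called members, the 2 smallest p of each complex and role, members of isoform families, members whose probes differ in sign with a call, and up to 3 called genes (or the 2 smallest p) of each other list; further names are those of small groups, of subunits with a known role, of genes with printed sequence and of genes said to be singled out. Replicate numbers were read as the 2 experiments of different passages, which pairs samples across groups; same-numbered samples deviated together across genes (correlation 0.386). Alternatives covered background correction, scaling, the filter, the choice of probe, the replicate block, the variance model and leaving out each array. One gene is counted but not reported here by name. Promoter sequences are RefSeq's (GRCm38.p6); probe positions are the files' (mm9).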

Additional observations from a re-analysis of the deposited data

How the results depend on the processing

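The probes that stood for the chain genes were well above background on all arrays, and 2 arrays per group limit the precision. Under the 15 alternatives, Ndufaf4 lost its call only without a filter on dim probes (0 members and 0 of all genes called, against 27.3%), with adjusted p values of 0.109 there and at most 0.0134 elsewhere, and values of 1.65 to 2.53. The members that rose numbered 1 with the percentile over detected probes, 33 without scaling, 0 without the filter, 3 with normexp background (Ndufaf4, Ndufaf2 and Ndufs1), 2 with an intensity trend (Ndufaf4 and Ndufs1) and 1 to 1 without 1 array (Atp5s lost in each case). Those that fell numbered 3 with normexp background, 6 with the percentile over detected probes, 2 with quantile normalization, 2 with cyclic loess, 0 without scaling, 0 without the filter, 2 with the filter on all 4 arrays, 6 with the replicate block and 5 with an intensity trend. With the replicate block, which follows the pairing of the experiments, 3 rose: Ndufaf4, Atp5s and Ndufaf2, where limma called 43.1% of all genes. Among all 17569 genes, 2302 rose and 2502 fell under the main setting. With the percentile over detected probes 1878 rose and 3651 fell, without scaling 8244 and 365, and with normexp background 2763 and 3637. Quantile normalization gave 2242 and 2247, cyclic loess 2350 and 2092, and the replicate block 3499 and 4072. Of all calls under the main setting, 47.9% were higher, against 34.0% with the percentile over detected probes and 95.8% without scaling.

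The median change of subunits was 0.040 with normexp, -0.22 with the percentile over detected probes, -0.033 with quantile normalization, -0.017 with cyclic loess, 0.66 without scaling and -0.12 to -0.045 without 1 array. That of assembly factors was 0.15 with the percentile over detected probes, 0.19 with quantile normalization, 1.02 without scaling and 0.19 to 0.35 without 1 array. Unscaled values carry the shift of all genes (0.68), under which these turned above 0 without a call unless stated: Atp5c1 0.53, Atp5g1 0.73 (called), Atp5g2 0.43, Cox4i1 0.52, Cox4i2 0.29, Cox6a1 0.57, Cox6a2 0.34, Cox6b1 0.62, Cox7a1 0.32, Cox7a2 0.62, Cox7a2l 0.43, Cox7b 0.59, Cox8a 0.34, Ndufa4 0.55, Ndufv3 0.45, Sdhb 0.59, Uqcr11 0.49, Uqcrh 0.55 and Atpif1 0.36. Other turns of sign were these: Atp5g1 was at 0.115 with normexp, 0.15 with quantile normalization, 0.095 with cyclic loess, and -0.18 to 0.14 without 1 array; Atp5g3 at -0.12 with the percentile over detected probes, and -0.079 to 0.094 without 1 array; Cox4i1 at 0.0011 with quantile normalization; Cox6a1 at 0.29 with quantile normalization and 0.027 with cyclic loess. Without 1 array, Cox6b1 ran from -0.25 to 0.0028 and Cox7a2 from -0.27 to 0.011. The cause of these moves was not tested.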

Other observations

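The subunits encoded in the mitochondrial genome lie outside the genes described above and were read by 12 genes' probes, all of which were tested. All 12 had a change below 0, with a median of -0.45, and limma called 2 lower (16.7%, against 14.2% of all genes) and 0 higher. COX2, a catalytic subunit of complex IV that takes electrons from cytochrome c, read 17.74 and 18.05 without Epo and 17.20 and 17.28 with Epo, a change of -0.66 ± 0.15 (SE; limma adjusted p 0.0404). COX1, the catalytic subunit that holds the site of oxygen reduction, read 18.05 and 18.05 without Epo and 17.55 and 17.63 with Epo, a change of -0.46 ± 0.11 (SE; limma adjusted p 0.0462). The groups were apart for both, and for 11 of the 12 genes (91.7%), against 68.8% of all genes and 81.5% of those with a mean level of 15 and above. ND1, the subunit with the smallest change, read 14.16 and 14.05 against 13.99 and 13.98, a change of -0.12.

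These values depend on the scaling and the pairing. After cyclic loess or quantile normalization limma called 0 of the 12, and the median was -0.35 and -0.30. Without scaling the median was 0.30, where that of all genes was 0.68. With the replicate number as a block, 10 of the 12 fell, where 4072 of all 17569 genes and 306 of the 1036 with a mean level of 15 and above fell. The median over all genes with a mean level of 15 and above was -0.27, and the labelling primes on poly(A) tails, which mitochondrial transcripts carry in short form; the part of either in these values was not tested. COX1 and COX2 were singled out after their values were seen.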
